A study of Homo sapiens with 16 samples.

Results

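The genes described here are 50 ribosome biogenesis factors, proteins that make, cut, modify and fold ribosomal RNA in the nucleolus and that carry the names listed for the group. They were taken from a list of symbols. That list, the classes and the other gene lists were chosen with earlier results of these data known. Their counts beside the shares of all genes are therefore descriptions. All 50 were found among the 55510 gene symbols of the count tables, and all 50 were among the 22007 symbols with enough counts to be tested. The cells were CAL51, a human line established from a triple-negative breast tumour, and were treated with CC-671, a compound known to inhibit the spindle checkpoint kinase TTK and the splicing factor kinase CLK2. The 6 groups were cells given the vehicle DMSO for 6 h (2 libraries), DMSO for 24 h (2 libraries), CC-671 at 3 µM for 6 h (3 libraries), 10 µM for 6 h (3 libraries), 3 µM for 24 h (3 libraries) and 10 µM for 24 h (3 libraries). All 16 libraries came from this 1 cell line and are biological replicates by their labels, so the tests weigh each difference against the scatter among these libraries only.

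Ribosome production starts with transcription of a long precursor by RNA polymerase I. The small subunit processome, built from the UTP-A, UTP-B and MPP10 modules around the U3 small nucleolar RNA, assembles on the precursor as it is made and leads to the small subunit, whereas a separate set that includes the PeBoW complex matures the large subunit. Box C/D and box H/ACA ribonucleoproteins, guided by small nucleolar RNAs, methylate and pseudouridylate the precursor. The output of the pathway is tied to growth, and it is commonly raised in cancer cells.

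The libraries held 104609173 to 123789361 read pairs at genes, and libraries of 1 group differed from each other by more than sampling noise. The cell line's labels were checked against markers. KRT8 (536 to 699.9 CPM), KRT18 (460.2 to 619 CPM), EPCAM (264 to 371 CPM) and VIM (208 to 343 CPM) were abundant in all 16 libraries. The hormone receptor genes ESR1 and PGR did not exceed 0.0477 and 0.0356 CPM. On the same luminal hormone receptor list, ERBB2 was at 84.7 to 192 CPM, FOXA1 at 10.3 to 17.1 CPM and GATA3 at 3.97 to 6.05 CPM. CPM here is the number of read pairs at a gene in a library scaled to 1000000 pairs at genes, after TMM scaling between libraries. Of the 10 leukocyte markers, MS4A1 and NKG7 were at 0 in all 16 libraries and PTPRC was the most abundant (5.08 to 13.1 CPM). Among the 5 with enough counts to be tested, 3 were higher than vehicle at each dose at 6 h (all genes 31.6% and 34.0%). The medians of the 5 were 1.20 and 1.54 on the log2 scale. At 24 h, 3 at 3 µM and 2 at 10 µM were higher (all genes 29.7% and 31.3%). At 6 h, 0 were lower at 3 µM and 1 at 10 µM, and at 24 h 1 was lower at each dose. Tested beside PTPRC were CD14, ITGAM, CD79A and LYZ, with medians of 0.103 to 0.515 CPM over the libraries. The summed level of the list was 10.8 to 13.8 CPM in vehicle, 12.0 to 13.2 CPM at 6 h of CC-671 and 6.53 to 8.07 CPM at 24 h. The fibroblast list summed to 277 to 353 CPM in vehicle, 319 to 338 CPM at 6 h and 269 to 285 CPM at 24 h of CC-671, mostly from COL3A1. PDGFRB (30.9 to 72.0 CPM), COL1A2 (11.4 to 21.9 CPM), COL1A1 (8.11 to 15.2 CPM) and LUM (1.68 to 2.63 CPM) were also present. DCN, FAP and THY1 were at 0 in 11, 9 and 7 libraries. The endothelial list summed to 12.3 to 19.5 CPM in vehicle, 10.6 to 12.3 CPM at 6 h and 8.44 to 10.7 CPM at 24 h. Its most abundant gene was CDH5 (6.32 to 16.9 CPM), and KDR was at 0 in 5 libraries. The luminal hormone receptor list summed to 196 to 211 CPM in vehicle, 108 to 117 CPM at 6 h and 125 to 137 CPM at 24 h, mostly from ERBB2, the 1 of its 3 tested genes that fell at 6 h while FOXA1 and GATA3 rose. The epithelial and mesenchymal list summed to 1573 to 1824, 1886 to 1965 and 1902 to 1929 CPM. These sums moved with treatment, and their part in the results was not tested.

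The upstream sequences of 41 of the 50 genes were matched by symbol in the RefSeq table of GRCh38.p14. Each window holds the 250 bases before the annotated start. The members shown are UTP6, which had the lowest log2 fold change of all 50 at 6 h, UTP18, of the same UTP-B module, and UTP3 and NOP10, which were higher than vehicle. Lower-case runs are written 5′ to 3′ on the strand of the gene, and capitals mark matches on either strand to the E-box CACGTG (the letters bound by MYC and its relatives) or to CCGGAAG (letters typical of ETS-family sites), which reads CTTCCGG on the other strand. The windows are chr17:31901709-31901958 on the minus strand for UTP6, chr17:51260296-51260545 on the plus strand for UTP18, chr4:70688282-70688531 on the plus strand for UTP3 and chr15:34343137-34343386 on the minus strand for NOP10.
UTP6: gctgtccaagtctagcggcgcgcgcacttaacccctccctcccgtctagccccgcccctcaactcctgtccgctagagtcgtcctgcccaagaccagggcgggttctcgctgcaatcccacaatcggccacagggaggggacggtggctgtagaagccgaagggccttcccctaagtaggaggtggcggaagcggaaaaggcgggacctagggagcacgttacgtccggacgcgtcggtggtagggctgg
UTP18: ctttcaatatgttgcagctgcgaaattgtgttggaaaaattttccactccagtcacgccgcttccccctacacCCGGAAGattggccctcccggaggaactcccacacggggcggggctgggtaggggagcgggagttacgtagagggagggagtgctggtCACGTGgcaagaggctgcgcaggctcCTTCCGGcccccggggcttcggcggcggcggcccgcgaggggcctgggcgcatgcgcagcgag
UTP3: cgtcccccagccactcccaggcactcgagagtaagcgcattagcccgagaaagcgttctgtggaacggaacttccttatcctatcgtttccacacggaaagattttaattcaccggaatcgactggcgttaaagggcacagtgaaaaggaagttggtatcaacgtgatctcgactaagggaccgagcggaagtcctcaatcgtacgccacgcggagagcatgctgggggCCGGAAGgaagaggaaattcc
NOP10: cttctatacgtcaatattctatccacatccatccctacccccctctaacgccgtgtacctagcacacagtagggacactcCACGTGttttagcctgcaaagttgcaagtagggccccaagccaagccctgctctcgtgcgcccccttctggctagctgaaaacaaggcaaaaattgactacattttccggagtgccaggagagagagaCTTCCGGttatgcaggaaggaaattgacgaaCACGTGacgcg

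The UTP6 window held none of the motifs searched, UTP18 held CACGTG starting 89 bases before the start and CCGGAAG at 63 and 177 bases, UTP3 held CCGGAAG at 21 bases, and NOP10 held CACGTG at 11 and 170 bases and CCGGAAG at 42 bases. A gene with more than 1 annotated start, as 5 of the 41 had, counted once if any of its windows matched. Over both strands, CCGGAAG was upstream of 15 of the 41 genes (36.6%). It was upstream of 10.2% of all 27305 symbols in the table and 16.8% of the 11386 tested symbols with a window. CACGTG was upstream of 6 of the 41 genes (14.6%, against 7.73% and 10.7%), and AAGATGGCG, the core letters of the YY1 motif, of 2 (4.88%, against 0.784% and 1.26%). None of the 3 motifs contains another, and a match is a description of letters only. Members that were lower at 6 h and members that were higher both held matches. CACGTG was upstream of UTP20, UTP14A, UTP18, IMP4, DDX21 and NOP10, of which NOP10 alone was higher than vehicle. With a window, 24 members were lower at both doses at 6 h and 10 were higher at both. CACGTG was upstream of 5 of the 24 and 1 of the 10. CCGGAAG was upstream of 9 of the 24, 3 of the 10 and 3 of the other 7. AAGATGGCG was upstream of 2 of the 24 (TBL3 and IMP4), 0 of the 10 and 0 of the other 7. These shares were not tested.

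Most of the 50 genes were lower after CC-671 than in vehicle. At 3 µM and 6 h, 31 fell and 12 rose by edgeR's quasi-likelihood test at an adjusted p under 0.05, against 31.6% of all tested genes lower and 31.6% higher. At 10 µM and 6 h, 33 fell and 12 rose (all genes 33.6% and 34.0%). The 3 µM libraries at 24 h had 39 lower and 5 higher members (all genes 30.9% and 29.7%), and the 10 µM libraries at 24 h had 36 lower and 5 higher (all genes 32.3% and 31.3%). The 5 higher at 3 µM and 24 h became 3 without either vehicle library of 24 h or without 3 µM replicate 2 or 3. With library totals alone as the scale, 27 were lower and 5 higher at 3 µM and 24 h (4968 and 8422 of all 22007 genes). At 10 µM and 24 h, 24 were lower and 9 higher on that scale (5322 and 8790 of all genes). The median of all genes moved to 0.10 and 0.12 there. Both doses of a time were compared with the same 2 vehicle libraries. In bulk RNA, fewer cells of a kind and less RNA per cell cannot be told apart. The median log2 fold change of the members was −0.29, −0.38, −0.24 and −0.20 in that order, and that of all tested genes lay between 0.00 and 0.02. Among the 10362 genes at least as abundant as the least abundant member, 45.0%, 46.8%, 46.0% and 46.7% were lower and 35.5%, 36.2%, 28.6% and 31.2% higher.

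The size of the change differed with time. At 6 h, 9 members at 3 µM and 11 members at 10 µM were at least 2-fold lower, against 4.92% and 6.77% of all genes. At 24 h none of the 50 was 2-fold lower (all genes 2.54% and 3.67%). The treated libraries lay wholly outside the 2 vehicle libraries for 44 and 45 members at 6 h and for 49 and 48 at 24 h, in the order 3 µM, 10 µM (all genes 72.7%, 74.6%, 75.4% and 77.5%). Summed over the 50 genes, the level was 7985 and 8107 CPM in vehicle at 6 h, 6866 to 7212 CPM at 3 µM and 6707 to 6862 CPM at 10 µM. At 24 h the sum was 7339 and 7400 CPM in vehicle, 6130 to 6286 CPM at 3 µM and 6181 to 6269 CPM at 10 µM. The sum was thus lower in every treated library than in either vehicle library of its time.

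**Figure D1:**
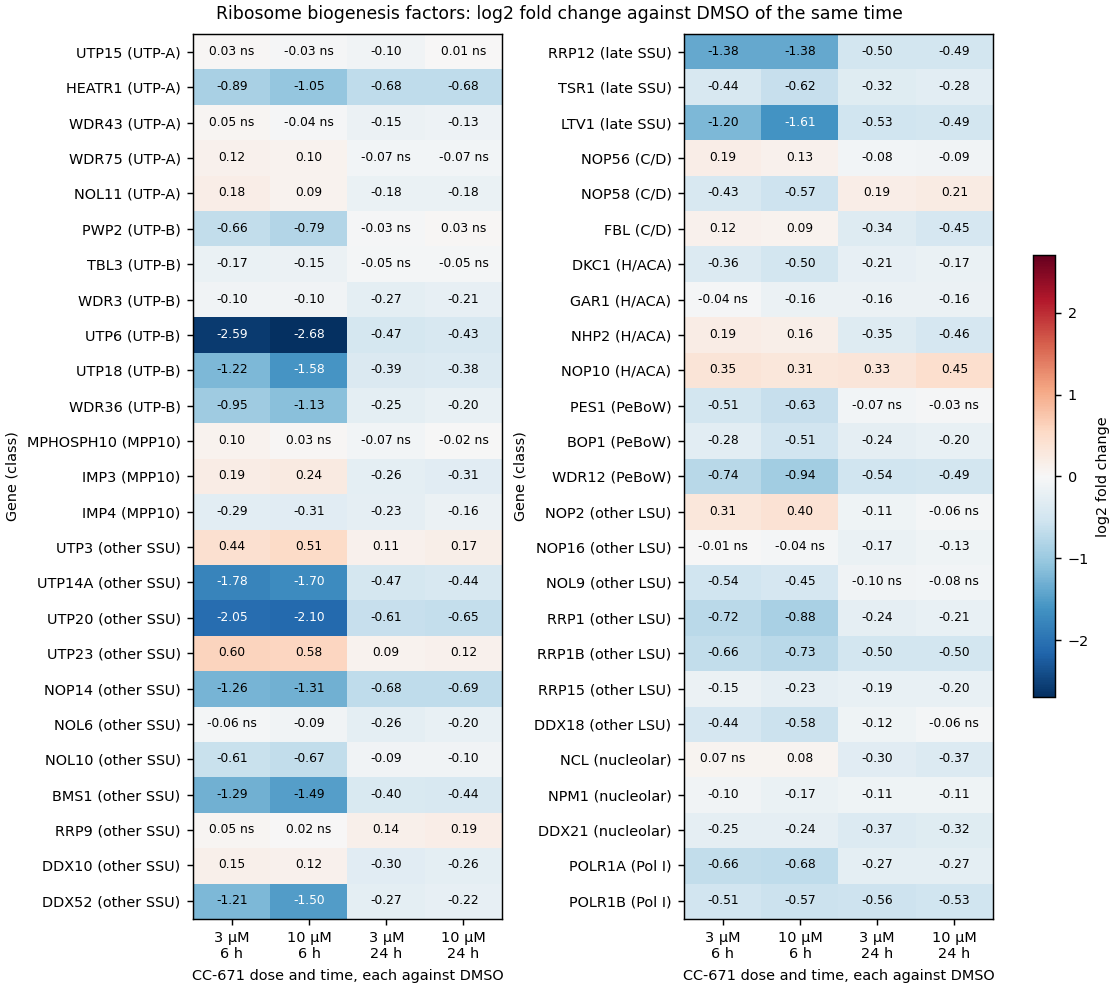
Log2 fold change of each of the 50 genes (vertical axis, with its class) against DMSO of the same time at 3 and 10 µM CC-671 and 6 and 24 h (horizontal axis), where blue is lower, red is higher and ns marks a value that did not pass an adjusted p of 0.05. The darkest cells are UTP6, UTP20 and UTP14A at 6 h, and the 24 h columns are paler, with a lowest value of −0.69. With library totals alone as the scale, the 24 h values of NOL10, NOP56, MPHOSPH10, PES1, NOL9, TBL3 and WDR75 at both doses, of PWP2 at 3 µM and of NOP2 and DDX18 at 10 µM turned positive.

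The UTP-B module, which holds the base of the 5′ external transcribed spacer and the U3 RNA in the processome, was lower than vehicle at 6 h. Of its 6 subunits, 6 passed as lower at 3 µM and 6 at 10 µM (all genes 31.6% and 33.6%), with medians of −0.81 and −0.96. UTP6, a repeat protein of this module, was at 67.8 and 68.2 CPM in vehicle, at 11.0, 11.3 and 11.7 CPM at 3 µM and at 11.9, 9.51 and 10.3 CPM at 10 µM. The treated libraries thus had 0.166 and 0.156 times the vehicle level, with log2 fold changes of −2.59 ± 0.05 and −2.68 ± 0.05 (adjusted p = 3.5e-23 and 9.15e-24), and none came near the vehicle range. UTP6 at 24 h was at 63.5 and 62.4 CPM in vehicle, 45.6, 45.2 and 45.7 CPM at 3 µM and 46.9, 46.8 and 46.3 CPM at 10 µM, a log2 fold change of −0.47 ± 0.05 and −0.43 ± 0.05. The drop at 24 h was small beside that at 6 h, but the groups still did not overlap.

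UTP18, a beta-propeller protein of UTP-B, was at 93.5 and 90.5 CPM in vehicle at 6 h, 39.3, 37.8 and 41.3 CPM at 3 µM and 32.0, 28.7 and 31.3 CPM at 10 µM. Its log2 fold changes were −1.22 ± 0.04 and −1.58 ± 0.04, and the 3 groups lay apart from each other. At 24 h UTP18 had 85.7 and 83.5 CPM in vehicle, 62.0, 65.7 and 65.5 CPM at 3 µM and 65.2, 64.2 and 66.1 CPM at 10 µM. The other UTP-B subunits are WD-repeat proteins. At 10 µM and 6 h, WDR36 had −1.13 ± 0.07, PWP2 −0.79 ± 0.04, TBL3 −0.15 ± 0.03 and WDR3 −0.10 ± 0.04 on the log2 scale. WDR3 at −0.10 (3 µM) and −0.10 (10 µM) did not pass without vehicle replicate 2 or with a filter of 1 CPM in 5 libraries, nor at 3 µM in DESeq2. PWP2 and TBL3 did not pass at 24 h at either dose, with PWP2 at −0.03 ± 0.04 and 0.03 ± 0.04 (adjusted p = 0.545 and 0.493). The module's counts at 24 h were 4 lower of 6 at each dose (all genes 30.9% and 32.3%).

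The UTP-A module binds the very start of the precursor and is linked to RNA polymerase I transcription. Only HEATR1, its large repeat scaffold, fell at 6 h. HEATR1 was at 135 and 149 CPM in vehicle, 80.9, 72.0 and 77.7 CPM at 3 µM and 71.8, 61.2 and 72.1 CPM at 10 µM, with log2 fold changes of −0.89 ± 0.06 and −1.05 ± 0.06. At 24 h its level was 139.8 and 141 CPM in vehicle, 87.3, 89.8 and 86.7 CPM at 3 µM and 86.6, 87.3 and 88.7 CPM at 10 µM, and the log2 fold changes were −0.68 ± 0.06 and −0.68 ± 0.06. HEATR1 was thus among the members with the largest 24 h change. WDR75 and NOL11 rose slightly at 6 h (0.12 and 0.18 at 3 µM, 0.10 and 0.09 at 10 µM), whereas UTP15 (0.03 and −0.03) and WDR43 (0.05 and −0.04) did not pass. Without vehicle replicate 1 or 2 of 6 h, or without 10 µM replicate 2 or 3, the NOL11 rise at 10 µM did not pass, and the WDR75 rise at 10 µM did not pass without either vehicle library.

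Of the MPP10 complex, which joins U3 RNA to the precursor, IMP4 fell and IMP3 rose at 6 h. IMP4 was at 89.2 and 88.3 CPM in vehicle, 70.8, 73.9 and 72.6 CPM at 3 µM and 72.0, 72.6 and 69.7 CPM at 10 µM, a log2 fold change of −0.29 ± 0.03 and −0.31 ± 0.03. At 24 h IMP4 had 76.6 and 77.4 CPM in vehicle, 66.0, 63.4 and 67.2 CPM at 3 µM and 67.2, 68.2 and 71.9 CPM at 10 µM, and the groups did not overlap at either time. IMP3 had 0.19 ± 0.04 and 0.24 ± 0.04 at 6 h and −0.26 ± 0.04 and −0.31 ± 0.04 at 24 h. MPHOSPH10, the protein that gives the complex its name, had 0.10 ± 0.04 at 3 µM and 6 h (adjusted p = 0.0238), which did not pass without vehicle replicate 1, vehicle replicate 2 or 3 µM replicate 2 or 3, and did not pass in the other 3 comparisons with vehicle. With library totals alone as the scale, its 24 h values turned from −0.07 and −0.02 to 0.03 and 0.09.

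The 11 other small subunit processome factors held 5 of the members that were at least 2-fold lower at 3 µM and 5 of those at 10 µM, 6 h. UTP20, a giant helical scaffold of the processome, was at 87.9 and 105 CPM in vehicle, 25.4, 21.7 and 22.9 CPM at 3 µM and 24.4, 19.3 and 24.0 CPM at 10 µM. The vehicle libraries were unequal, but both lay far above all 6 treated libraries, and the log2 fold changes were −2.05 ± 0.10 and −2.10 ± 0.10 (adjusted p = 2.58e-09 and 1.66e-09). At 24 h UTP20 had 92.6 and 92.5 CPM in vehicle, 58.7, 62.6 and 60.1 CPM at 3 µM and 58.6, 59.4 and 59.3 CPM at 10 µM. That is a log2 fold change of −0.61 ± 0.09 and −0.65 ± 0.09, the third largest among the members at 10 µM. UTP14A, which activates the helicase that strips U3 RNA from the precursor, was at 44.8 and 45.6 CPM in vehicle at 6 h, 12.9, 13.0 and 13.7 CPM at 3 µM and 15.9, 12.2 and 13.7 CPM at 10 µM. Its log2 fold changes were −1.78 ± 0.06 and −1.70 ± 0.06. The level at 24 h was 40.5 and 39.7 CPM in vehicle, 28.2, 28.7 and 29.7 CPM at 3 µM and 29.5, 30.1 and 28.9 CPM at 10 µM, so the treated libraries were higher than at 6 h yet below both vehicle libraries.

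BMS1, a GTPase of the processome, was at 123 and 126 CPM in vehicle at 6 h, 49.6, 50.3 and 53.0 CPM at 3 µM and 47.3, 40.2 and 45.2 CPM at 10 µM. At 24 h BMS1 had 121 and 120.2 CPM in vehicle, 90.9, 92.0 and 91.1 CPM at 3 µM and 88.2, 90.1 and 89.5 CPM at 10 µM. The log2 fold changes were −1.29 ± 0.04, −1.49 ± 0.04, −0.40 ± 0.04 and −0.44 ± 0.04. BMS1 is uncertain in so far as 17 annotated pseudogenes carry its name. DDX52, a DEAD-box helicase, was at 98.4 and 103 CPM in vehicle at 6 h, 44.1, 41.0 and 45.4 CPM at 3 µM and 38.0, 32.0 and 36.5 CPM at 10 µM. DDX52 at 24 h was at 101 and 100.2 CPM in vehicle, 83.3, 83.1 and 84.2 CPM at 3 µM and 85.7, 86.9 and 86.0 CPM at 10 µM. Its log2 fold change went from −1.50 ± 0.05 at 10 µM and 6 h to −0.22 ± 0.05 at 24 h. The other helicase of the class, DDX10, moved the opposite way at 6 h.

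NOP14, a scaffold needed for small subunit assembly, had the largest 24 h change of all 50 members at 10 µM. NOP14 was at 156 and 155 CPM in vehicle at 6 h, 70.0, 59.8 and 64.6 CPM at 3 µM and 68.1, 53.7 and 66.7 CPM at 10 µM. At 24 h it was at 139 and 143 CPM in vehicle, 87.6, 87.9 and 88.5 CPM at 3 µM and 86.9, 86.7 and 88.1 CPM at 10 µM. The log2 fold changes were −1.26 ± 0.08 and −1.31 ± 0.08 at 6 h and −0.68 ± 0.08 and −0.69 ± 0.08 at 24 h (adjusted p = 1.65e-05 and 1.22e-05). NOL10 had −0.61 ± 0.03 and −0.67 ± 0.03 at 6 h and −0.09 ± 0.03 and −0.10 ± 0.03 at 24 h, the latter pair turning to 0.01 with library totals alone as the scale. Without vehicle replicate 2 of 24 h NOL10 did not pass at 24 h at either dose, nor at 3 µM without vehicle replicate 1. NOL6 had −0.06 ± 0.03, which did not pass, and −0.09 ± 0.03 at 6 h, and −0.26 ± 0.03 and −0.20 ± 0.03 at 24 h. RRP9, a protein specific to the U3 particle, did not pass at 6 h (0.05 and 0.02) and rose at 24 h (0.14 ± 0.04 and 0.19 ± 0.04).

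UTP3, UTP23 and DDX10 were the members of this class that rose at 6 h. UTP3 was at 51.7 and 51.9 CPM in vehicle, 67.3, 71.5 and 71.5 CPM at 3 µM and 71.6, 77.8 and 71.7 CPM at 10 µM, log2 fold changes of 0.44 ± 0.04 and 0.51 ± 0.04. UTP3 at 24 h had 49.5 and 49.0 CPM in vehicle, 51.3, 54.7 and 53.2 CPM at 3 µM and 53.4, 56.6 and 55.8 CPM at 10 µM, and the log2 fold changes were 0.11 ± 0.04 and 0.17 ± 0.04. UTP23, which acts in the release of an H/ACA guide RNA from the precursor, was at 34.4 and 36.5 CPM in vehicle at 6 h, 53.4, 51.8 and 56.1 CPM at 3 µM and 53.2, 54.3 and 51.9 CPM at 10 µM. That was the largest rise of any member, at 0.60 ± 0.04 and 0.58 ± 0.04. At 24 h UTP23 was at 32.1 and 32.7 CPM in vehicle, 33.4, 35.0 and 35.3 CPM at 3 µM and 35.8, 34.7 and 34.9 CPM at 10 µM, with log2 fold changes of 0.09 ± 0.04 and 0.12 ± 0.04. The 24 h rises at 3 µM of UTP3 and UTP23 did not pass in DESeq2 or without vehicle replicate 1, vehicle replicate 2, or 3 µM replicate 2 or 3, and that of UTP23 at 10 µM did not pass without vehicle replicate 1 or 10 µM replicate 1.

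DDX10 was at 62.7 and 64.5 CPM in vehicle at 6 h, 67.3, 69.6 and 74.0 CPM at 3 µM and 70.0, 70.2 and 67.0 CPM at 10 µM. At 24 h it had 61.9 and 60.7 CPM in vehicle, 48.3, 50.8 and 50.8 CPM at 3 µM and 51.1, 50.6 and 52.1 CPM at 10 µM, so it was above vehicle early and below vehicle late. Its log2 fold changes were 0.15 ± 0.04 and 0.12 ± 0.04 at 6 h, which did not pass without vehicle replicate 1, and −0.30 ± 0.04 and −0.26 ± 0.04 at 24 h.

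**Figure D2:**
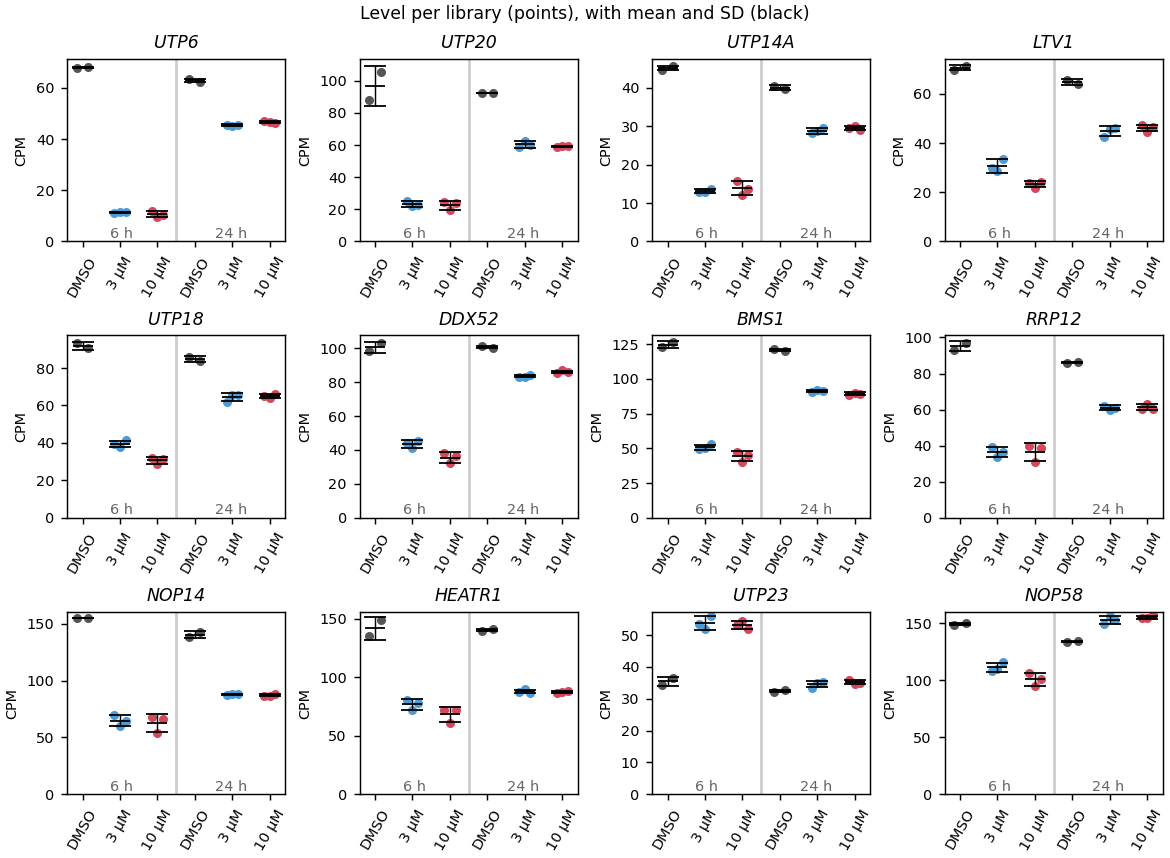
Level in CPM (vertical axis, from 0) of 12 members in each of the 16 libraries, as points by group (horizontal axis, grey DMSO, blue 3 µM, red 10 µM, 6 h left and 24 h right), with the group mean and SD in black. UTP6 sits at 9.51 to 11.9 CPM in the treated libraries of 6 h against 67.8 and 68.2 CPM in vehicle, while UTP23 is above vehicle at 6 h and NOP58 is below vehicle at 6 h and above it at 24 h.

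The late small subunit factors, which accompany the pre-40S particle out of the nucleolus, were lower in every comparison with vehicle: 3 of 3 at each dose and time. Of all genes, 31.6% and 33.6% were lower at 6 h and 30.9% and 32.3% at 24 h, at 3 and 10 µM. LTV1, a late factor that must be released before the subunit is finished, was at 69.9 and 71.4 CPM in vehicle at 6 h, 29.7, 28.6 and 33.7 CPM at 3 µM and 23.8, 21.7 and 24.0 CPM at 10 µM. At 24 h LTV1 was at 65.9 and 63.9 CPM in vehicle, 42.7, 45.9 and 46.3 CPM at 3 µM and 47.3, 44.6 and 46.5 CPM at 10 µM. The log2 fold changes were −1.20 ± 0.05 and −1.61 ± 0.05 at 6 h, with the 2 doses apart, and −0.53 ± 0.05 and −0.49 ± 0.05 at 24 h. RRP12, which acts in subunit export, was at 93.3 and 97.0 CPM in vehicle at 6 h, 39.4, 33.9 and 36.7 CPM at 3 µM and 40.0, 31.0 and 38.9 CPM at 10 µM. RRP12 at 24 h had 85.9 and 86.5 CPM in vehicle, 62.3, 59.7 and 61.1 CPM at 3 µM and 60.5, 63.3 and 60.5 CPM at 10 µM. Its log2 fold changes were −1.38 ± 0.09, −1.38 ± 0.09, −0.50 ± 0.09 and −0.49 ± 0.09, and the doses overlapped at both times. TSR1, a GTPase-like factor of the pre-40S particle, had −0.44 ± 0.03 and −0.62 ± 0.03 at 6 h and −0.32 ± 0.03 and −0.28 ± 0.03 at 24 h.

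The box C/D core proteins split. NOP58, which holds the guide RNA together with NOP56, was at 149 and 149.8 CPM in vehicle at 6 h, 108, 109.9 and 115 CPM at 3 µM and 106, 95.0 and 101 CPM at 10 µM, log2 fold changes of −0.43 ± 0.04 and −0.57 ± 0.04. At 24 h NOP58 was at 134 and 134 CPM in vehicle, 149, 156 and 153 CPM at 3 µM and 154, 155 and 157 CPM at 10 µM, above both vehicle libraries, with log2 fold changes of 0.19 ± 0.04 and 0.21 ± 0.04. No other member was lower than vehicle at 6 h and higher at 24 h (all genes 4.00% at 3 µM and 5.06% at 10 µM). FBL, the methyltransferase of the particle, had 0.12 ± 0.04 and 0.09 ± 0.04 at 6 h and −0.34 ± 0.04 and −0.45 ± 0.04 at 24 h. The 6 h rise of FBL did not pass without vehicle replicate 2 or replicate 2 of the dose, nor at 10 µM without replicate 3. NOP56 had 0.19 ± 0.03 and 0.13 ± 0.03 at 6 h and −0.08 ± 0.03 and −0.09 ± 0.03 at 24 h, and the 24 h values turned to 0.02 at both doses with library totals alone as the scale. At 24 h NOP56 did not pass without vehicle replicate 2, nor at 3 µM without vehicle replicate 1 or 3 µM replicate 2.

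Among the box H/ACA core proteins, which also belong to telomerase, DKC1 fell and NOP10 rose in each comparison with vehicle. DKC1, the pseudouridine synthase, was at 207 and 211 CPM in vehicle at 6 h, 162, 158 and 168 CPM at 3 µM and 153, 145 and 147 CPM at 10 µM. At 24 h DKC1 was at 178 and 177 CPM in vehicle, 153, 153 and 153 CPM at 3 µM and 156, 159 and 158 CPM at 10 µM. Its log2 fold changes were −0.36 ± 0.03 and −0.50 ± 0.03 at 6 h and −0.21 ± 0.03 and −0.17 ± 0.03 at 24 h. NOP10, a very small protein of the particle, had 0.35 ± 0.04 and 0.31 ± 0.04 at 6 h and 0.33 ± 0.04 and 0.45 ± 0.04 at 24 h, the largest 24 h rise of any member. NHP2, which binds the guide RNA, had 0.19 ± 0.04 and 0.16 ± 0.04 at 6 h and −0.35 ± 0.04 and −0.46 ± 0.04 at 24 h. GAR1 had −0.04 ± 0.04 at 3 µM and 6 h, which did not pass, and −0.16 ± 0.04, −0.16 ± 0.04 and −0.16 ± 0.04 elsewhere.

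The PeBoW complex, needed to mature the RNAs of the large subunit, was lower in 3 of 3 members at each dose at 6 h. The medians were −0.51 and −0.63, and 31.6% and 33.6% of all genes were lower. WDR12 was at 79.5 and 80.5 CPM in vehicle at 6 h, 47.6, 45.6 and 50.4 CPM at 3 µM and 42.0, 41.7 and 41.5 CPM at 10 µM, and the 3 groups did not overlap. At 24 h WDR12 had 73.0 and 72.0 CPM in vehicle, 48.4, 51.7 and 49.6 CPM at 3 µM and 51.6, 51.5 and 51.7 CPM at 10 µM. The log2 fold changes were −0.74 ± 0.04, −0.94 ± 0.04, −0.54 ± 0.04 and −0.49 ± 0.04. BOP1 had −0.28 ± 0.07 and −0.51 ± 0.07 at 6 h and −0.24 ± 0.07 and −0.20 ± 0.07 at 24 h, where neither dose passed without vehicle replicate 1. PES1 had −0.51 ± 0.03 and −0.63 ± 0.03 at 6 h and did not pass at 24 h (−0.07 and −0.03, or 0.03 and 0.09 with library totals alone as the scale).

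Of the 7 other large subunit factors, 5 fell at each dose at 6 h (all genes 31.6% and 33.6%) and NOP2 rose (all genes 31.6% and 34.0%). RRP1 was at 81.3 and 82.5 CPM in vehicle at 6 h, 51.2, 48.6 and 49.4 CPM at 3 µM and 45.9, 42.7 and 45.4 CPM at 10 µM, and at 67.0 and 68.7 CPM, 58.3, 56.6 and 57.6 CPM and 58.0, 59.5 and 59.0 CPM in the same groups at 24 h. Its paralog RRP1B was at 219 and 219 CPM in vehicle at 6 h, 139.7, 134 and 143 CPM at 3 µM and 135, 128 and 133 CPM at 10 µM, and at 207 and 205 CPM, 142, 148 and 148 CPM and 147, 145 and 146 CPM at 24 h. RRP1 had −0.88 ± 0.03 at 10 µM and 6 h and −0.21 ± 0.03 at 24 h on the log2 scale, whereas RRP1B had −0.73 ± 0.03 and −0.50 ± 0.03. DDX18, a helicase, had −0.44 ± 0.03 and −0.58 ± 0.03 at 6 h, NOL9, a kinase that acts on the cut RNA, −0.54 ± 0.04 and −0.45 ± 0.04, and RRP15 −0.15 ± 0.04 and −0.23 ± 0.04. NOP16 did not pass at 6 h (−0.01 and −0.04).

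NOP2, a methyltransferase of the large subunit RNA, was at 131 and 130.2 CPM in vehicle at 6 h, 161, 163 and 161 CPM at 3 µM and 175, 174 and 168 CPM at 10 µM. At 24 h NOP2 was at 112 and 115 CPM in vehicle, 104, 105 and 106 CPM at 3 µM and 107, 109.6 and 110.1 CPM at 10 µM. It was thus above vehicle at 6 h in all 6 treated libraries and, on this scale, below vehicle at 24 h in all 6. The log2 fold changes were 0.31 ± 0.03 and 0.40 ± 0.03 at 6 h, −0.11 ± 0.03 at 3 µM and 24 h, and −0.06 ± 0.03 at 10 µM and 24 h, which did not pass (adjusted p = 0.0932). With library totals alone as the scale, NOP2 had −0.01 at 3 µM and 24 h, which did not pass (adjusted p = 0.79), and 0.05 at 10 µM.

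The 3 multifunctional nucleolar proteins changed little at 6 h. DDX21, a helicase that links RNA polymerase I and II transcription, was at 527 and 566 CPM in vehicle at 6 h, 466, 430.4 and 482 CPM at 3 µM and 489, 441 and 454 CPM at 10 µM. At 24 h DDX21 was at 476 and 476 CPM in vehicle, 361, 373 and 373 CPM at 3 µM and 380.3, 382 and 381 CPM at 10 µM. The log2 fold changes were −0.25 ± 0.04, −0.24 ± 0.04, −0.37 ± 0.04 and −0.32 ± 0.04. NCL, nucleolin, a histone and RNA chaperone, was at 1575 and 1576 CPM in vehicle at 6 h, 1607, 1643 and 1708 CPM at 3 µM and 1683, 1699.8 and 1624 CPM at 10 µM, and at 1498 and 1492 CPM, 1190.3, 1232 and 1210.4 CPM and 1149, 1148 and 1182 CPM at 24 h. The groups did not overlap at either time, with 0.07 ± 0.03 (did not pass) and 0.08 ± 0.03 at 6 h and −0.30 ± 0.03 and −0.37 ± 0.03 at 24 h. The NCL rise at 10 µM and 6 h did not pass without either vehicle library or without 10 µM replicate 1 or 2. NPM1, nucleophosmin, had −0.10 ± 0.03, −0.17 ± 0.03, −0.11 ± 0.03 and −0.11 ± 0.03, and 45 annotated pseudogenes carry its name. NPM1 did not pass at 3 µM and 6 h without vehicle replicate 2 of 6 h, nor at 24 h without vehicle replicate 1 of 24 h.

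Both RNA polymerase I subunits were lower in each comparison with vehicle (all genes 31.6% and 33.6% at 6 h, 30.9% and 32.3% at 24 h). POLR1A, the largest subunit of the enzyme, was at 109 and 117 CPM in vehicle at 6 h, 75.3, 68.8 and 69.6 CPM at 3 µM and 70.0, 64.3 and 76.4 CPM at 10 µM, and at 120.4 and 122 CPM, 101, 102 and 98.0 CPM and 101, 99.2 and 101 CPM at 24 h. POLR1B, the second-largest subunit, was at 83.9 and 89.3 CPM in vehicle at 6 h, 64.3, 56.5 and 62.1 CPM at 3 µM and 60.6, 56.0 and 58.1 CPM at 10 µM, and at 81.4 and 79.4 CPM, 54.3, 55.4 and 54.5 CPM and 54.6, 54.6 and 57.3 CPM at 24 h. In log2 fold change POLR1A went from −0.68 ± 0.05 at 10 µM and 6 h to −0.27 ± 0.05 at 24 h, and POLR1B from −0.57 ± 0.04 to −0.53 ± 0.04. The shift between times passed for POLR1A (0.42 ± 0.08, adjusted p = 0.000109) and did not pass for POLR1B (0.04 ± 0.06, adjusted p = 0.646).

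The effect of time was tested as the 24 h log2 fold change minus the 6 h log2 fold change, each against its own vehicle. At 3 µM the 24 h effect was higher for 23 members and lower for 17 (all genes 25.6% and 23.7%). With library totals alone as the scale, it was higher for 26 and lower for 12 (6733 and 4138 of all 22007 genes). At 10 µM, with TMM scaling, the 24 h effect was higher for 26 and lower for 12 (all genes 27.6% and 26.4%). Where the 6 h value was below 0, a higher 24 h effect is a smaller drop or a rise. The 4 largest shifts at 10 µM were those of UTP6 (2.25 ± 0.07), UTP20 (1.45 ± 0.14), DDX52 (1.28 ± 0.07) and UTP14A (1.26 ± 0.09), with adjusted p of 1.76e-18, 2.61e-06, 5.37e-13 and 3.62e-10 by edgeR's quasi-likelihood test. At 3 µM their shifts were 2.12, 1.43, 0.94 and 1.30. At 10 µM, 27 members were lower at both times (all genes 19.4%), although NOL10 had a positive 24 h value with library totals alone as the scale, and UTP3, UTP23 and NOP10 were higher at both (all genes 18.8%). Another 7 were higher at 6 h and lower at 24 h, against 5.43% of all genes: NOL11, IMP3, DDX10, NOP56, FBL, NHP2 and NCL, of which NOP56 had a positive 24 h value and NOL11 did not pass at 24 h with library totals alone as the scale.

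**Figure D3:**
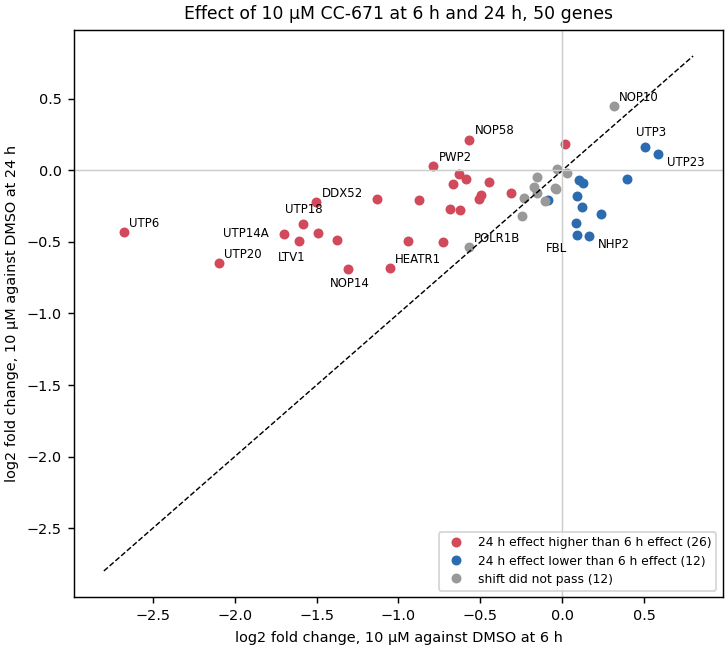
Log2 fold change of each of the 50 genes at 10 µM CC-671 against DMSO at 6 h (horizontal axis) and at 24 h (vertical axis), with the dashed line where both are equal and colours for the tested shift between times. The points above the line, UTP6 at −2.68 and −0.43 farthest from it, had a higher value at 24 h than at 6 h, and FBL and NHP2 lie above 0 at 6 h and below 0 at 24 h.

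The doses differed at 6 h for part of the list. Between 10 and 3 µM at 6 h, 16 members were lower at the higher dose and 1 was higher (all genes 12.9% and 12.0%). LTV1 (−0.40 ± 0.05), UTP18 (−0.36 ± 0.04), DDX52 (−0.29 ± 0.05) and BMS1 (−0.20 ± 0.04) were lower at 10 µM, with adjusted p of 1.16e-05, 1.74e-07, 6.66e-05 and 0.000569. All 3 PeBoW members were among the 16. UTP6 (−0.09 ± 0.05), UTP20 (−0.05 ± 0.10), UTP14A (0.08 ± 0.06) and RRP12 (−0.00 ± 0.08) did not pass between doses. NOP2 was the member that was higher at 10 µM (0.09 ± 0.03, adjusted p = 0.0121), which did not pass when only these 2 groups were fitted. Without 3 µM replicate 1 or 10 µM replicate 2, 2 members were higher (all genes 2552 of 21977 and 2640 of 21947). HEATR1 and WDR36, each lower at 10 µM, did not pass without 3 µM replicate 1 or 3 or 10 µM replicate 2, and GAR1 did not pass without 3 µM replicate 3 or 10 µM replicate 3. The groups did not overlap for 20 members (all genes 32.9%).

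At 24 h the difference between doses lay between −0.11 and 0.12 on the log2 scale for all 50 members. FBL (−0.11 ± 0.03, adjusted p = 0.0403) and NHP2 (−0.11 ± 0.03, adjusted p = 0.0441) were the 2 that were lower at 10 µM (all genes 3.85%), and without any single library of these groups 0 or 1 passed. By edgeR's quasi-likelihood test 0 members were higher at 10 µM (all genes 2.49%), and 3 were higher at an unadjusted p under 0.05. DESeq2 called 1 higher (all genes 596 of 13288). The groups did not overlap for 17 members (all genes 31.3%).

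Time in vehicle alone also went with lower levels. Between DMSO at 24 h and at 6 h, 24 members were lower (all genes 9.55%) and 0 were higher by edgeR (all genes 11.0%), with 0 higher at an unadjusted p under 0.05 and 0 by DESeq2. The median log2 fold change was −0.13, against 0.00 over all genes. The largest falls were in NOP16 (−0.40 ± 0.04), RRP9 (−0.31 ± 0.04), BOP1 (−0.29 ± 0.07) and RRP1 (−0.27 ± 0.04), of which BOP1 did not pass without DMSO replicate 1 of 6 h or DMSO replicate 2 of 24 h. These 24 h libraries are the same that served as controls for CC-671 at 24 h, so the 2 sets of values share them. The groups did not overlap for 45 members, against 59.4% of all genes.

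Members with more exons, and those with longer genes or transcripts, tended to have lower 6 h values. Exon number was taken from the longest coding transcript of each gene in GENCODE 29 and ran from 1 in UTP3 to 62 in UTP20. Over the 50 members, Spearman's rho between exon number and the log2 fold change was −0.50 at 3 µM and −0.47 at 10 µM at 6 h, and −0.30 and −0.28 at 24 h. Over 14024 matched protein-coding genes it was −0.33, −0.32, −0.12 and −0.13, all from the same libraries. In the same order, rho over the members was −0.48, −0.46, −0.36 and −0.34 for the length of the gene with introns. For the length of the spliced transcript it was −0.43, −0.38, −0.38 and −0.33. Over the 14024 genes these were −0.27, −0.25, −0.19 and −0.18, and −0.22, −0.16, −0.15 and −0.13. Exon number and the lengths were not tested apart. The 5 members with 1 to 4 exons (UTP3, NOP10, IMP3, UTP23 and NHP2) all rose at 10 µM and 6 h (34.0% of all tested genes). Their median was 0.31, against 0.16 for the 3153 genes of that class. The 17 members with 5 to 14 exons had a median of −0.23 (all 7260 genes 0.00), the 22 with 15 to 24 had −0.60 (all 2438 genes −0.27), and the 6 with 25 or more had −0.87 (all 1173 genes −0.36). UTP6 with 19 exons and LTV1 with 11 lay well below the medians of their classes, and NOP2 with 16 above.

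**Figure D4:**
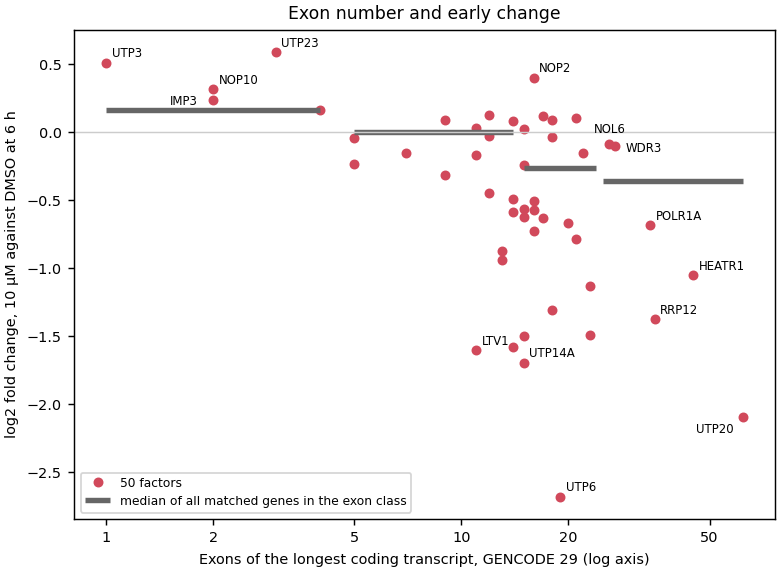
Exon number of the longest coding transcript (horizontal axis, log scale) and log2 fold change at 10 µM against DMSO at 6 h (vertical axis) for the 50 genes as points, with grey bars for the median of all matched genes in each of 4 exon classes. UTP3 with 1 exon is at 0.51, UTP20 with 62 is at −2.10, and UTP6 with 19 is the lowest point at −2.68.

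Read pairs at no annotated exon were more frequent in treated libraries. They were 4.38 to 4.76% of the pairs at genes, outside exons or ambiguous in vehicle at 6 h and 5.67 to 7.00% in the 6 treated libraries, and 4.26 to 4.59% and 5.64 to 6.10% at 24 h (exact two-sided permutation p = 0.0357 at each time, the smallest that 28 arrangements allow). Their part in the values of these genes was not tested. Small nucleolar RNA genes lie inside 7 members (WDR43, NOL11, TSR1, NOP56, NOP58, DKC1 and NCL), of which TSR1, NOP58 and DKC1 were lower at 10 µM and 6 h, NOL11, NOP56 and NCL were higher and WDR43 did not pass.

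Per kilobase of exonic sequence, the vehicle levels at 6 h ran from 2.96 CPM per kb for BOP1 to 258 for NPM1. NPM1, NCL (227), FBL (146), NOP10 (146) and DDX21 (109) were the most abundant per length. The 8 members with the largest drops at 10 µM and 6 h lay in both the lower and the upper part of this order. UTP20 was at 9.64, UTP6 and DDX52 at 10.5, UTP14A at 11.1, RRP12 at 11.2 and BMS1 at 16.1 CPM per kb. UTP18 was at 33.8 and LTV1 at 38.3, and NOP14, also at least 2-fold lower, was at 43.9.

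Other genes of the pathway moved in both directions. Of 125 further ribosome biogenesis genes, 69 fell and 38 rose at 3 µM and 6 h, 74 and 36 at 10 µM and 6 h, 55 and 34 at 3 µM and 24 h, and 52 and 41 at 10 µM and 24 h. The shares of all tested genes in the same order were 31.6% lower and 31.6% higher, 33.6% and 34.0%, 30.9% and 29.7%, and 32.3% and 31.3%. Their medians were −0.17, −0.25, −0.07 and −0.03, and the difference from the 50 members was not tested. At 10 µM and 6 h, the largest changes among other small subunit factors were in NAT10, an RNA acetyltransferase (−1.44 ± 0.05), NOP9 (−1.24 ± 0.05) and the dimethyltransferase DIMT1 (−1.23 ± 0.03), and NOP9 kept −1.06 ± 0.05 at 24 h. Of 53 further large subunit factors 30 fell and 15 rose, led by NOC3L (−2.25 ± 0.10), NVL (−1.70 ± 0.04) and the export adaptor NMD3 (−1.63 ± 0.06). The 15 exosome and nuclease genes, which trim the precursor, had 12 lower and 3 higher, with SKIV2L2, the helicase of the nuclear exosome, at −1.99 ± 0.09, EXOSC10 at −1.17 ± 0.06 and EXOSC3 at −1.04 ± 0.04. The 10 snoRNP assembly factors had 7 lower and 2 higher, with TCOF1 at −0.57 ± 0.03, NUFIP1 at −0.56 ± 0.05 and RUVBL2 at −0.46 ± 0.03.

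The other RNA polymerase I genes did not follow POLR1A and POLR1B as a group. Of 13, 7 were higher and 6 lower at 10 µM and 6 h (all genes 34.0% and 33.6%). TAF1D was at 0.76 ± 0.05, TWISTNB at 0.75 ± 0.03 and POLR1E at −1.43 ± 0.06. RNAs of the listed proteins of the ribosome itself were on the other side of vehicle at 6 h. Of the 45 cytosolic ribosomal protein genes listed, 43 at 3 µM and 44 at 10 µM were higher by edgeR's quasi-likelihood test (all genes 31.6% and 34.0%). By that test 0 were lower (all genes 31.6% and 33.6%), also at an unadjusted p under 0.05. The 10 µM median was 0.33, against −0.38 for the 50 factors. At 24 h, 21 and 23 of the 45 were higher (all genes 29.7% and 31.3%). At that time 6 and 8 were lower (all genes 30.9% and 32.3%), and the medians were 0.06 and 0.09. The difference between the lists was not tested, and these counts hold for the 45 listed genes only, not for the whole family.

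**Figure D5:**
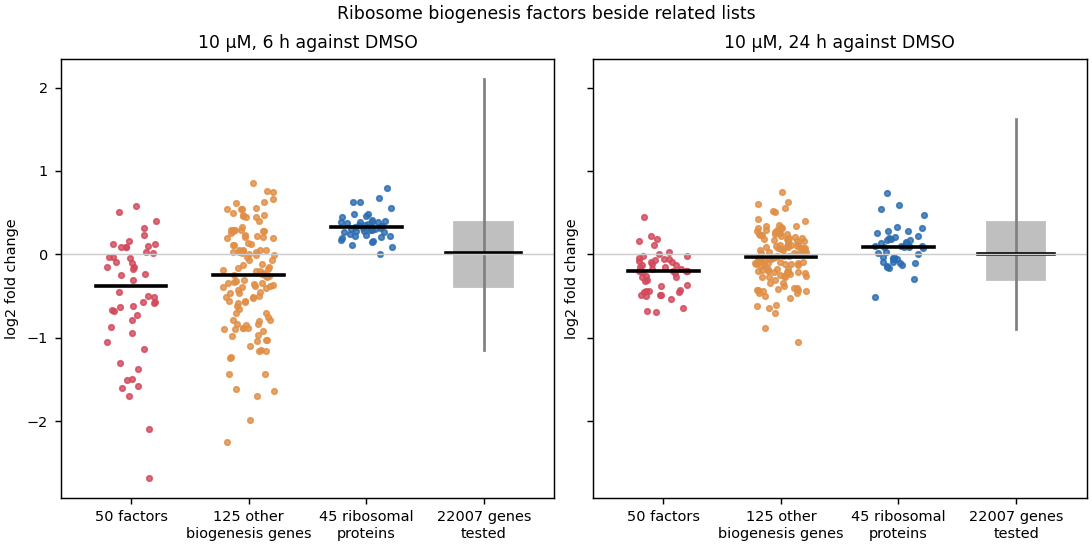
Log2 fold change (vertical axis) at 10 µM against DMSO at 6 h (left) and 24 h (right) for the 50 factors, 125 other biogenesis genes and 45 ribosomal protein genes, each gene a point and the black bar the median. For all 22007 tested genes the grey box spans the 25th to 75th and the line the 5th to 95th percentile. At 6 h the medians are −0.38 for the factors, −0.25 for the other biogenesis genes and 0.33 for the ribosomal proteins.

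In GENCODE 29, exons of 21 members overlap exons of another gene, 19 of them on the opposite strand, among them UTP6 (AC004253.1) and UTP23 (EIF3H and RAD21). The strand setting of the counting is not given in the sources used here, so reads of such members and of their partners cannot be told apart. HEATR1, LTV1 and NOP2 overlap a gene on the same strand, and 10 members have pseudogenes of their name.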

How the data were processed

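RNA of CAL51 cells was sequenced from 16 libraries in the 6 groups named above, after poly-A selection and strand-specific library construction per the labels' protocols. The authors deposited 1 file a library, with the raw count of pairs at each gene symbol. Per the submitters' processing notes, STAR, HTSeq and edgeR were used with hg19 (GRCh37); the tool versions, annotation release, overlap mode and strand setting were not given in the sources used here. The labels gave the groups, and all libraries were used. Entries that name no gene took 16.9 to 20.2% of all pairs and entered neither library sizes nor tests.

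Genes were kept by filterByExpr (minimum count 10, minimum total 15) in edgeR 4.0.16 and R 4.3.3, scaled by TMM (factors 0.963 to 1.05) and fitted as 6 group means over 16 libraries with edgeR's robust quasi-likelihood F test. The 9 two-sided comparisons were adjusted by Benjamini-Hochberg over the 22007 genes of each, and a gene with an adjusted p under 0.05 was said to rise or fall. The SE is the absolute log2 fold change over the square root of F. In simulated data for 10 µM at 6 h (21486 genes, 200 planted), 82.1%, 88.1% and 98.5% of 1.5-fold, 2-fold and 4-fold changes were recovered. Among planted genes at least as abundant as the least abundant member 100% were, and 6.77% of all calls were false. In the real comparison 7484 genes were higher and 7386 lower, and many members changed by less than 1.5-fold. The simulation therefore cannot give the recovery of smaller changes or the errors where most genes move.

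Alternatives were DESeq2 1.42.0, RLE scaling, no scaling factor, no filter beyond a total of 1, replicate number as a block, leaving out each library in turn, fitting only the groups compared, and a filter of 1 CPM in 5 libraries. Exon numbers, lengths and overlaps came from GENCODE 29 on GRCh38 and upstream sequences from RefSeq on GRCh38.p14, so no gene positions of the build of the counts are given. Values in every library were given for the 8 members with the largest called change at 10 µM and 6 h, the 6 largest at 24 h, the 4 largest shifts, the largest of each of the 11 classes and members that moved against their class. Genes of other lists were named if among the 3 largest called changes of the list at 10 µM and 6 h. The members, classes and lists were chosen with earlier results of these data known.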

Additional observations from a re-analysis of the deposited data

Results flagged for a closer look

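The effect of CC-671 was compared between 6 and 24 h by a test of the difference itself. At 3 µM the 24 h effect was higher for 23 of the 50 members and lower for 17 (all genes 25.6% and 23.7%), and at 10 µM it was higher for 26 and lower for 12 (all genes 27.6% and 26.4%). Given singly here are the 4 largest shifts at 10 µM and the members that were called in opposite directions at the 2 times. The shifts of UTP6, UTP20, DDX52 and UTP14A at 10 µM were 2.25, 1.45, 1.28 and 1.26 on the log2 scale. NOP58, lower than vehicle at 6 h and higher at 24 h, had shifts of 0.61 at 3 µM and 0.78 at 10 µM. The opposite order, higher at 6 h and lower at 24 h, gave shifts at 3 and 10 µM of −0.36 and −0.27 for NOL11, −0.45 and −0.54 for IMP3, −0.44 and −0.38 for DDX10, −0.26 and −0.22 for NOP56, −0.46 and −0.54 for FBL, and −0.54 and −0.62 for NHP2. NOP2, whose 24 h call was lost with no scaling factor, had −0.42 at 3 µM and NCL had −0.45 at 10 µM. The adjusted p of these shifts ran from 1.76e-18 for UTP6 to 0.000117 for NOL11, both at 10 µM, by edgeR's quasi-likelihood test. The 2 doses of a time share their vehicle libraries, and a shift in the effect holds the vehicle libraries of both times, which differed for 24 members.

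Read pairs outside annotated exons, which enter no test of a gene, made up a share that was 1.71 percentage points higher in treated than in vehicle libraries at 6 h and 1.44 points higher at 24 h.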

How the results depend on the processing

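The counts of lower members at 6 h kept their size, between 29 and 32 at 3 µM and 31 and 33 at 10 µM over all alternatives. Of the members called at 6 h, 38 of 43 at 3 µM and 38 of 45 at 10 µM passed in the same direction in every alternative. At 24 h this held for 30 of 44 and 28 of 41, between doses for 13 of 17 at 6 h and 0 of 2 at 24 h, in vehicle over time for 15 of 24, and for the shift between times for 33 of 40 and 34 of 38. The cause of the changes that follow was not tested. Members higher at 3 µM and 24 h went from 5 to 3 with DESeq2 and ranged from 3 to 5 with a library left out. Over all genes, 6529 of 22007 were higher at 3 µM and 24 h, and 5758 of 25446 with DESeq2. Members higher at 10 µM and 24 h went from 5 to 9 with no scaling factor (all genes from 6891 to 8790 of 22007). Between doses at 6 h, 1 higher member became 2 with a filter of 1 CPM in 5 libraries and 0 in a fit of only the groups compared. With a library left out the count was 1 to 2. Over all genes, 2649 of 22007 were higher before, 2773 of 14718 with that filter and 1577 of 20529 in that fit. Between doses at 24 h, 0 higher members became 1 with DESeq2, 2 with no scaling factor, 1 with no filter and 1 with the stricter filter. They became 1 with the replicate block and 7 in a fit of only the groups compared. Over all genes, 549 of 22007 were higher before. In the order of these alternatives, 596 of 13288, 732 of 22007, 628 of 36889, 635 of 14718, 487 of 22007 and 1876 of 20493 were higher. The 2 lower members became 0 with no scaling factor, 0 with the replicate block and 0 to 1 with a library left out. Lower genes among all 22007 went from 848 to 725 with no scaling factor and to 783 with the replicate block. In vehicle over time, 24 lower members became 38 in a fit of only the groups compared. Lower genes among all tested went from 2101 of 22007 to 2713 of 19908 there.

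With no scaling factor the median of all genes at 24 h moved to 0.10 at 3 µM and 0.12 at 10 µM, with 8422 higher and 4968 lower genes and 8790 higher and 5322 lower genes (6529 and 6810, and 6891 and 7114, with TMM). The signs of NOL10 (0.0089) and NOP56 (0.024) at 3 µM and 24 h and of MPHOSPH10 (0.092), NOL10 (0.014), NOP56 (0.019) and PES1 (0.085) at 10 µM and 24 h turned positive there. So did values that passed on neither scale, those of MPHOSPH10, PES1, NOL9, TBL3, WDR75 and PWP2 at 3 µM and of NOL9, TBL3, WDR75, NOP2 and DDX18 at 10 µM. Lower calls of 24 h lost there without a change of sign were WDR43, NOL11, WDR36, GAR1, BOP1, NOP16 and NPM1 at both doses, UTP15, NOP2 and DDX18 at 3 µM, and IMP4, DKC1 and DDX52 at 10 µM. Values near 0 that did not pass (UTP15, WDR43, NOP16, RRP9, PWP2, MPHOSPH10 and PES1) also changed sign in other alternatives. Replicate numbers did not pair the libraries: over 36 pairs of same-numbered libraries from different groups the correlation of deviations from the group means was −0.08 to 0.08, 0 pairs were over 0.1, and 3 of 16 libraries correlated best with their own number. The replicate block moved no other count of members by over 1.5 times. Leaving out 1 of the 2 vehicle libraries of a time leaves a single library, which the fit takes to vary like the other groups. Low depth kept no member out of the tests, since all 50 passed the filter on low counts.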
